A study of Mus musculus with 12 samples.

Results

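The 39 genes described here mark macrophages, the monocytes that some macrophages descend from, and myeloid or white blood cells in general. They were taken as a fixed list of gene symbols, and all 39 had 1 probe set of their own among the 19938 genes measured in that way. Gene expression was measured in the quadriceps, a thigh muscle, of 7-day-old C57Bl/6 mice on Affymetrix Mouse Gene ST arrays, with 1 array for each mouse and no treatment named. The 12 arrays fell into 6 labelled as lacking Cfl2 (KO1 to KO6) and 6 labelled as wild type littermates (WT1 to WT6). Cfl2 encodes cofilin-2, a muscle protein that takes actin filaments apart, and its loss causes a congenital myopathy. Levels are on a log2 scale, on which a difference of 1 is a doubling, and each difference below is the arrays labelled KO minus the arrays labelled WT.

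The labels were checked against Cfl2 itself. The Cfl2 probe set read 12.31 to 12.43 on the arrays labelled KO, against 4.92 to 7.71 on the arrays labelled WT, and all 12 arrays ran against their labels (difference 6.32 ± 0.36 SE, limma, adjusted p = 1.98e-07). Signs below follow the deposited labels, and they run opposite to the direction the study gives for Cfl2, Cd209f and Lep among the genes it names. Whether the Cfl2 probes fall inside the deleted sequence was not examined. No array was moved between groups, so a level higher on the arrays labelled KO is not shown to be higher in mice lacking Cfl2. The array labelled WT4 stood apart from the rest. The 12 neutrophil genes averaged 5.21 to 5.47 on the arrays labelled KO, against 8.12 on WT4 and 5.35 to 5.64 on the other 5 labelled WT. Genes of B cells, red cell precursors and platelets were also highest there, so results are given with and without WT4 where it touches them.

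Macrophages are tissue phagocytes that engulf dead cells and debris. Skeletal muscle holds resident macrophages in the connective tissue around fibres and vessels, many of them seeded before birth and recognised by the scavenger and lectin receptors Mrc1, Cd163, Lyve1 and Folr2. Monocytes arrive from blood, carry the chemokine receptor Ccr2, and can give rise to macrophages that present antigen on MHC class II molecules. Growth and survival of the whole lineage depend on the receptor Csf1r, and its identity is set by the transcription factor PU.1, the product of Spi1. In whole muscle RNA, fewer cells of a type and less RNA per cell cannot be told apart.

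PU.1 binds a purine-rich core, and promoters were searched for 1 form of it, GAGGAAGT, on either strand. RefSeq promoter windows of the assembly GRCm38.p6, each 300 bases long and reaching 250 bases upstream of a start, were found for 29 of the 39 genes. The motif lay in the windows of 4 of these 29 genes (13.8%), against 997 of 27025 genes with a window (3.69%). Of the 4, F13a1, Pf4 and C1qc were among the genes higher on the arrays labelled KO and Ctss was not. The windows of these 4 are printed as the examples that hold the motif, 5′ to 3′ on the strand of the gene and 280 bases each up to 30 bases past the start, with the motif or its reverse complement ACTTCCTC in capitals. The windows are chr13:37049184-37049463 on the minus strand for the second annotated start of F13a1, chr5:90772185-90772464 on the plus strand, chr4:136892885-136893164 on the minus strand and chr3:95526536-95526815 on the plus strand. A match is a description of the letters and not a binding site.
F13a1: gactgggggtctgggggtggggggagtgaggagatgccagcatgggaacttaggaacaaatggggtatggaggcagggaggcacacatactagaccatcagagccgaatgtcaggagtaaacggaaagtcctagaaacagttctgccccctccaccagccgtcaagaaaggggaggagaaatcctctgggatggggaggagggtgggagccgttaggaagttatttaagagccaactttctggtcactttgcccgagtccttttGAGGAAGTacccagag
Pf4: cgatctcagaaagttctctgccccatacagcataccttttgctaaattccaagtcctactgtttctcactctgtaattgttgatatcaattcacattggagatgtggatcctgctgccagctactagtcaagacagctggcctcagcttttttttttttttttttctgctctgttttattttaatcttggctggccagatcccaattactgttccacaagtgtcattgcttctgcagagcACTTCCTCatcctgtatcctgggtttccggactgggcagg
C1qc: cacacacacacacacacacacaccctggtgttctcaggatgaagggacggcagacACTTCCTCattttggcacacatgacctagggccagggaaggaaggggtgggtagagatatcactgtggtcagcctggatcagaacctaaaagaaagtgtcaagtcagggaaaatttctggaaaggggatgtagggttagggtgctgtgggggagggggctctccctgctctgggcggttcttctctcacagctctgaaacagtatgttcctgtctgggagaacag
Ctss: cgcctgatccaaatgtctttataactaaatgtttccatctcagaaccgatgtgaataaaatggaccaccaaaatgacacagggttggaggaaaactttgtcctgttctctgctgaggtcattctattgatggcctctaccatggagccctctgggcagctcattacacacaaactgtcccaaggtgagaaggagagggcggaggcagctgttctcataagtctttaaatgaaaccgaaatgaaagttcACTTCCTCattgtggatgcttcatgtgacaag

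The 2 largest differences were those of resident macrophage genes. Of the 39 genes, 17 (43.6%) passed an adjusted p of 0.05 with a higher level on the arrays labelled KO, against 19.5% of all 21789 probe sets tested, and 0 were lower, against 12.4% (31.9% of all tested passed in either direction). At an unadjusted p under 0.05 limma gave 21 higher and 0 lower, and the methods' t-test 20 and 0. Shares of all tested in each direction at that unadjusted threshold are not given in this report. The unadjusted counts here and below therefore have no background and are no result about a list. For the second method, the closing section on processing gives the total of probe sets called in both directions together. Of the 39, 6 (15.4%) were higher by at least 1.5-fold, against 2.91% of all tested, namely Folr2, Cd209f, Adgre1, Stab1, Fcer1g and Lyve1. The median difference was 0.28 over the 39 genes and -0.02 over all tested. Without WT4, 24 genes were higher and 0 lower, against 19.5% and 13.4% of all tested, and these included all 17. With the mean level of 8 adipocyte genes as a covariate the count was 11 of 39, as Lyve1, Mrc1, Cd68, C1qa, C1qb and Tyrobp lost their calls (adjusted p = 0.0824 to 0.281). Their differences in that fit were 0.73 for Lyve1, 0.24 for Mrc1, 0.47 for Cd68, 0.27 for C1qa, 0.47 for C1qb and 0.33 for Tyrobp, against 0.71, 0.35, 0.47, 0.38, 0.51 and 0.41 without the covariate. Calls over all probe sets tested also fell in that fit, by the counts given in the closing section on processing, so the drop was not particular to these genes.

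**Figure D1:**
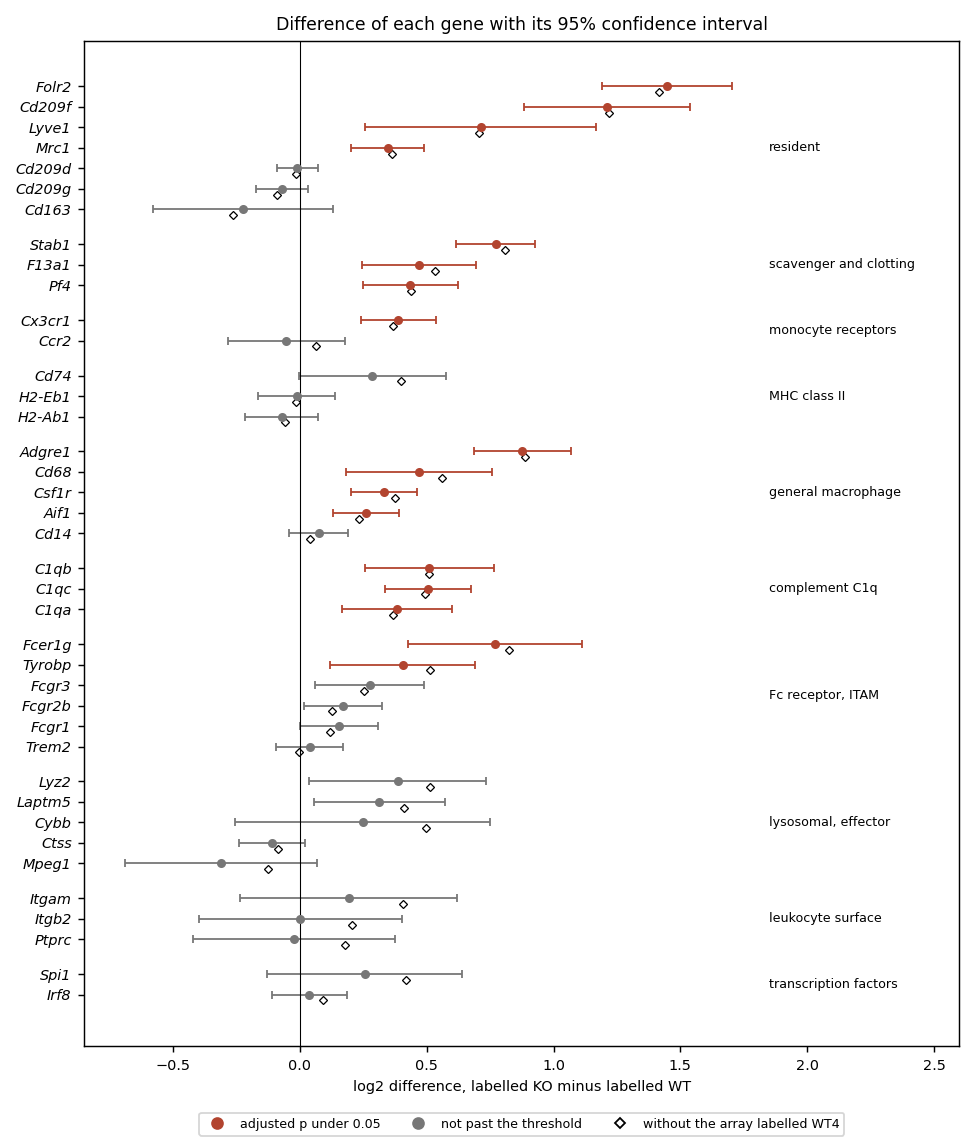
Difference of each of the 39 genes between the arrays labelled KO and those labelled WT (log2, x axis) with its 95% confidence interval, grouped by role, with n = 6 arrays each. Red points passed an adjusted p of 0.05, grey points did not, and diamonds give the difference without the array labelled WT4. The points of Folr2 and Cd209f lie farthest to the right, at 1.45 and 1.21.

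Folr2, a folate receptor of resident macrophages, had the largest difference of the 39. It read 8.48, 8.41, 8.68, 8.67, 8.61 and 8.64 on KO1 to KO6, against 7.26, 7.16, 7.64, 6.99, 7.06 and 6.70 on WT1 to WT6. Every array labelled KO lay above every array labelled WT, and the lowest value was that of WT6. The difference was 1.45 ± 0.12 (SE), a 2.73-fold higher level (adjusted p = 2.99e-06).

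Cd209f belongs to the mouse family of DC-SIGN lectins, which bind sugars on microbes. Its levels on KO1 to KO6 were 5.82, 5.68, 6.25, 5.90, 5.03 and 6.06, against 4.48, 4.59, 4.70, 4.62, 4.53 and 4.56 on WT1 to WT6. The groups did not overlap, and KO5 was the lowest of its group. KO5 was also the array labelled KO with the lowest adipocyte genes, at a mean of 7.75, where the 6 arrays averaged 9.17. Cd209f was 2.31-fold higher (difference 1.21 ± 0.15 SE, adjusted p = 6.58e-05), from a probe set brighter than 21.7% of those tested.

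The other 2 Cd209 genes gave no call. Cd209d read 4.60 to 4.73 on the arrays labelled KO with a median of 4.68, against 4.59 to 4.74 with a median of 4.70 on those labelled WT (difference -0.01, 95% interval -0.09 to 0.07, adjusted p = 0.862). Cd209g read 4.95, 4.98, 5.08, 4.94, 4.88 and 4.94 on KO1 to KO6, against 5.11, 4.91, 5.08, 4.94, 5.10 and 5.06 on WT1 to WT6 (difference -0.07, interval -0.18 to 0.03, adjusted p = 0.272). Both overlapped fully, and both probe sets were dim, brighter than 13.1% and 18.4% of those tested, which limits what can be seen.

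Mrc1 encodes the mannose receptor CD206, and Lyve1 a hyaluronan receptor shared by perivascular macrophages and lymphatic vessels. Mrc1 stood at 9.85, 9.74, 9.81, 9.88, 9.65 and 9.89 on KO1 to KO6, against 9.52, 9.65, 9.44, 9.54, 9.35 and 9.24 on WT1 to WT6 (difference 0.35 ± 0.07 SE, adjusted p = 0.00147). The groups touched only at 9.65, shared by KO5 and WT2. Lyve1 read 9.24, 9.23, 9.57, 9.86, 9.43 and 9.48 on KO1 to KO6, against 8.47, 9.61, 9.20, 8.71, 8.10 and 8.44 on WT1 to WT6. WT2 lay inside the range of the arrays labelled KO, and the other 5 arrays labelled WT lay below it. Lyve1 was 1.64-fold higher (difference 0.71 ± 0.21 SE, adjusted p = 0.0198), and its call was lost with the methods' t-test (adjusted p = 0.0532). Of 5 lymphatic genes measured, 2 were higher and 0 lower, beside 19.5% and 12.4% of all tested. So small a count is no result about the list. Flt4, a lymphatic growth factor receptor, was at 0.49 and Prox1, the factor that defines lymphatic endothelium, at -0.02 (adjusted p = 0.00114 and 0.865). The part of lymphatic vessels in the Lyve1 difference was not tested.

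Cd163, the scavenger receptor for haemoglobin bound to haptoglobin, was not called and had the lowest difference of the 7 resident genes. It read 7.21, 7.11, 7.03, 6.95, 7.06 and 7.15 on KO1 to KO6, against 7.23, 8.23, 7.13, 7.11, 6.98 and 7.18 on WT1 to WT6. The groups overlapped, and WT2 alone stood above 7.23. The difference was -0.23 with a 95% interval of -0.58 to 0.13 (adjusted p = 0.32), and -0.04 without WT2. WT2 was thus the highest array labelled WT for Cd163, Lyve1, Mrc1 and F13a1, and over the 39 genes it was highest of its group in 10 (25.6%), against 17.1% of all tested.

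**Figure D2:**
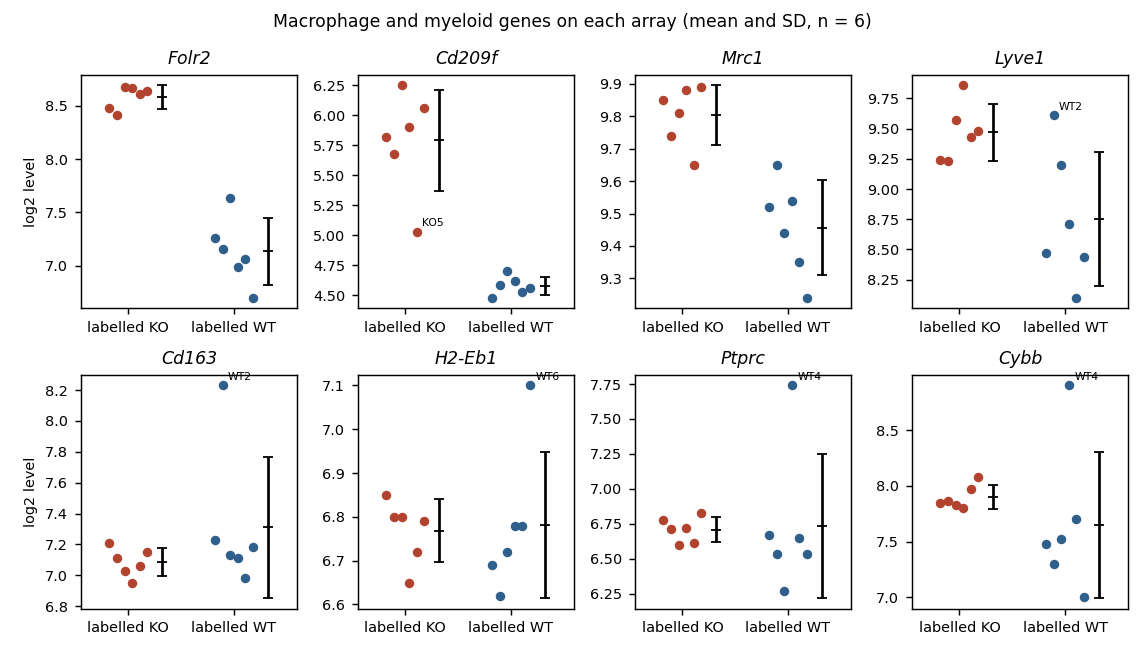
Array values of 8 genes (log2 level, y axis, a separate scale in each panel), with arrays labelled KO left of those labelled WT and the mean and SD of 6 beside each group. Folr2 and Cd209f do not overlap, WT2 is high for Lyve1 and Cd163, and WT4 reads 7.74 for Ptprc and 8.90 for Cybb.

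The 3 scavenger and clotting genes often read beside resident macrophages were all higher, beside 19.5% of all tested. A count of 3 is too small for a result about the group. Stab1, a scavenger receptor of macrophages and sinusoidal endothelium, ran over 8.95, 9.0 and 9.13 on the arrays labelled KO (lowest, median, highest), against 8.01, 8.28 and 8.45 on those labelled WT. There was no overlap, and Stab1 was 1.71-fold higher (difference 0.77 ± 0.07 SE, adjusted p = 8.47e-06). F13a1, the A subunit of clotting factor XIII, differed by 0.47 ± 0.11, with 5 of 6 arrays labelled KO above all labelled WT (adjusted p = 0.0039). Pf4, a chemokine of platelets and of resident macrophages, differed by 0.44 ± 0.09 (adjusted p = 0.00182). Of 4 platelet genes measured, 0 were higher and 2 were lower, beside 19.5% and 12.4% of all tested. Without WT4, 1 platelet gene was higher and 2 were lower, beside 19.5% and 13.4%. So small a count is no result about the list. The 8 blood endothelial genes averaged 10.26 to 10.33 on the arrays labelled KO, against 9.74 to 10.13 on those labelled WT. Of these 8, 6 were higher and 0 lower, against 19.5% and 12.4% of all tested. Pecam1 and Cdh5, 2 junction proteins of vessels, differed by 0.36 and 0.35. The part of endothelial content in the Stab1 difference was not tested.

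Genes carried by macrophages of every kind were higher in 4 of 5 cases, beside 19.5% of all tested. So small a count is no result about the group. Adgre1, which encodes the F4/80 antigen, ran over 8.30, 8.42 and 8.60 on the arrays labelled KO (lowest, median, highest), against 7.16, 7.62 and 7.77 on those labelled WT, with no overlap (difference 0.88 ± 0.09 SE, 1.84-fold, adjusted p = 1.33e-05). Csf1r, the receptor for the growth factors Csf1 and Il34, also separated the groups and differed by 0.33 ± 0.06 (adjusted p = 0.000979). Cd68, a lysosomal glycoprotein, differed by 0.47 ± 0.13 (adjusted p = 0.0159). The arrays labelled WT4 at 8.92 and WT3 at 8.57 lay among the arrays labelled KO, the lowest of which was KO1 at 8.47. Without WT1, WT2 and WT6, the arrays highest in glucocorticoid-induced genes, the Cd68 difference was 0.33 (adjusted p = 0.186). Aif1, an actin-binding protein of macrophages and microglia, differed by 0.26 ± 0.06 (adjusted p = 0.00483), from a dim probe set. Cd14, the lipopolysaccharide co-receptor, differed by 0.07 (interval -0.04 to 0.19, adjusted p = 0.324).

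The 3 chains of complement C1q, which macrophages make and which tags debris for uptake, were all higher. Over all tested the share was 19.5%, and 3 genes are too few for a result about the group. C1qc ran over 8.88, 9.07 and 9.29 on the arrays labelled KO (lowest, median, highest), against 8.46, 8.53 and 8.86 on those labelled WT, again without overlap (difference 0.51 ± 0.08 SE, adjusted p = 0.000323). C1qb differed by 0.51 ± 0.12 and C1qa by 0.38 ± 0.10 (adjusted p = 0.00483 and 0.0101). In both, WT2 lay within the range of the arrays labelled KO and was the highest array labelled WT.

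Among 6 Fc receptor and adaptor genes, the 2 signalling adaptors were higher and the 3 Fc receptors were not called. Fcer1g, the common gamma chain through which Fc receptors signal, ran over 8.97, 9.38 and 9.65 on the arrays labelled KO (lowest, median, highest), against 7.97, 8.65 and 8.99 on those labelled WT. The ranges met only at KO1 and WT2, and Fcer1g was 1.70-fold higher (difference 0.77 ± 0.16 SE, adjusted p = 0.0024). Tyrobp, the adaptor DAP12, differed by 0.41 ± 0.13 (adjusted p = 0.0317). Its call was lost under 10 of 29 alternatives, but the difference was 0.51 without WT4 (adjusted p = 0.00207). Fcgr3, Fcgr2b and Fcgr1, receptors for the constant part of immunoglobulin G, differed by 0.28, 0.17 and 0.15 (adjusted p = 0.0509, 0.0828 and 0.118). Trem2, a lipid receptor that signals through DAP12, differed by 0.04 (interval -0.09 to 0.17, adjusted p = 0.665).

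**Figure D3:**
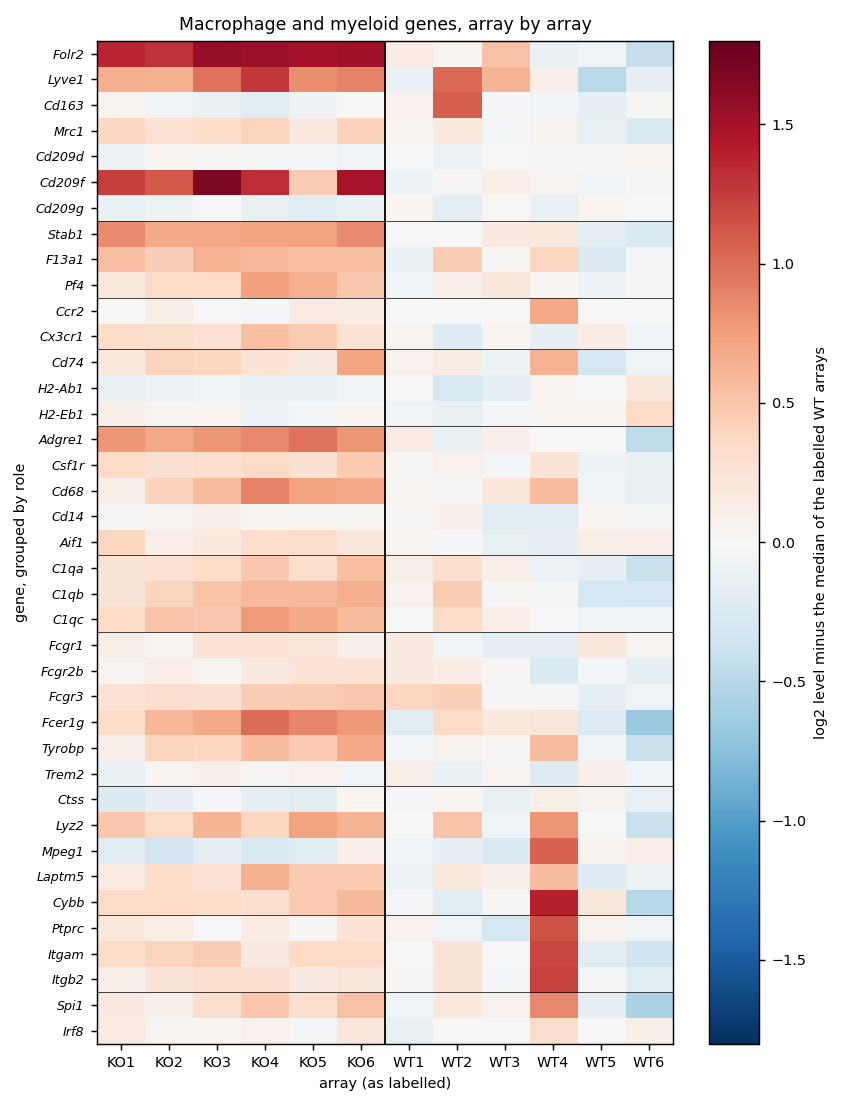
Level of each of the 39 genes (rows, grouped by role) on each of the 12 arrays (columns, labelled KO left of labelled WT), as the log2 level minus the median of the arrays labelled WT. Red is higher and blue lower, and WT4 is the darkest column labelled WT for Ptprc, Itgam, Itgb2, Cybb and Mpeg1.

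Of the 2 monocyte chemokine receptors, Cx3cr1 was higher and Ccr2 was not called. Cx3cr1, the fractalkine receptor carried by many tissue macrophages as well as by patrolling monocytes, read 7.59, 7.58, 7.52, 7.80, 7.72 and 7.52 on KO1 to KO6, against 7.31, 7.03, 7.32, 7.12, 7.40 and 7.22 on WT1 to WT6. It did not overlap and differed by 0.39 ± 0.07 (SE, adjusted p = 0.000795). Ccr2, which draws monocytes out of the marrow, read 4.34, 4.46, 4.36, 4.31, 4.50 and 4.49 on KO1 to KO6, against 4.35, 4.36, 4.34, 5.04, 4.35 and 4.34 on WT1 to WT6. Only WT4 stood out, the probe set was brighter than only 8.85% of those tested, and the difference was -0.05 (adjusted p = 0.731), or 0.06 without WT4 (adjusted p = 0.303).

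None of the 3 MHC class II genes passed the threshold with all arrays, and none had an unadjusted p under 0.05 by limma or the methods' t-test. H2-Ab1, which encodes a beta chain of the antigen-presenting molecule, read 6.24, 6.26, 6.29, 6.24, 6.25 and 6.31 on KO1 to KO6, against 6.37, 6.10, 6.19, 6.41, 6.37 and 6.58 on WT1 to WT6 (difference -0.07, interval -0.22 to 0.07, adjusted p = 0.437). The arrays labelled KO sat inside the wider range of those labelled WT. H2-Eb1, another beta chain, read 6.85, 6.80, 6.80, 6.65, 6.72 and 6.79 on KO1 to KO6, against 6.69, 6.62, 6.72, 6.78, 6.78 and 7.10 on WT1 to WT6 (difference -0.01, interval -0.16 to 0.14, adjusted p = 0.901). WT6 was highest for both beta chains. Cd74, the invariant chain that guides these molecules through the cell, read 6.74, 6.97, 6.95, 6.81, 6.72 and 7.27 on KO1 to KO6, against 6.64, 6.70, 6.47, 7.19, 6.26 and 6.49 on WT1 to WT6. WT4 lay among the arrays labelled KO and the other 5 lay below all of them. Cd74 differed by 0.29 with all arrays and by 0.40 without WT4 (adjusted p = 0.123 and 0.00921).

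Resident genes were set against the monocyte receptors and MHC class II genes on each array, as a description with no test. The mean of the 7 resident genes was 7.16, 7.13, 7.30, 7.27, 7.05 and 7.26 on KO1 to KO6, against 6.68, 6.96, 6.84, 6.65, 6.55 and 6.56 on WT1 to WT6, with no overlap and a difference of 0.49. The 3 MHC class II genes averaged 6.56 to 6.79 on the arrays labelled KO, against 6.46 to 6.79 where labelled WT, and the 2 monocyte receptors 5.94 to 6.11, against 5.70 to 6.08. Because probe sets differ in brightness, only the change of such means between arrays can be read, not their distance from each other. The resident mean minus that of the other 5 genes averaged 0.80 ± 0.10 on the arrays labelled KO and 0.42 ± 0.25 on those labelled WT (SD, n = 6 each). The groups overlapped in this measure through WT2, at 0.80, while the other 5 arrays labelled WT ran over 0.14 to 0.63, below KO5 at 0.67, the lowest of its group. The difference between the groups was 0.38 with all arrays and 0.33 without WT4. Folr2, Cd209f and Lyve1, at 1.45, 1.21 and 0.71, weighed most in the resident mean, and Mrc1 was at 0.35. Cd163, Cd209d and Cd209g stood at -0.23, -0.01 and -0.07, so the resident genes did not move as a set. Means of the scavenger and clotting, C1q and general macrophage genes differed by 0.56, 0.47 and 0.40. A higher mean was therefore not particular to the resident genes.

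**Figure D4:**
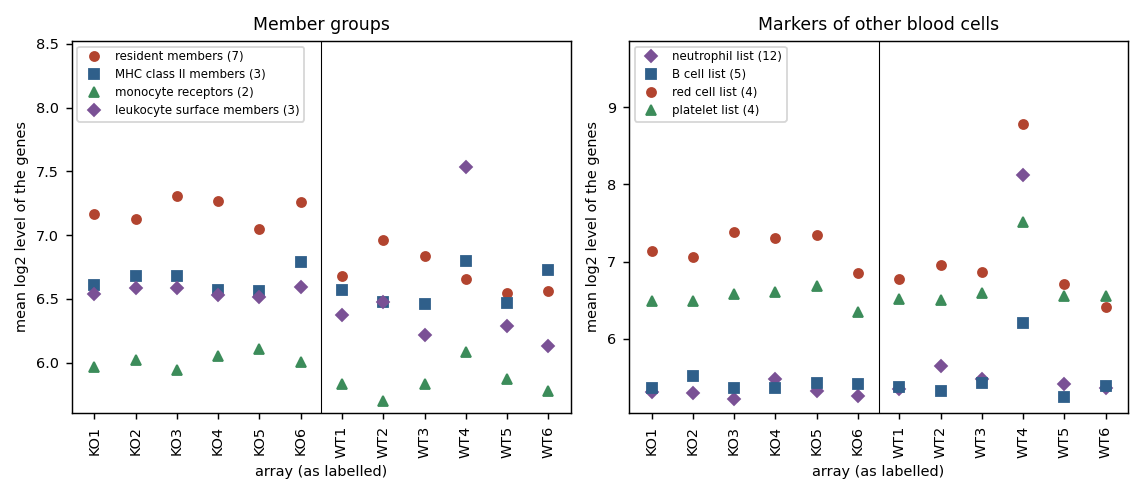
Mean log2 level of groups of genes on each array (y axes), with arrays labelled KO left of those labelled WT. The left panel shows 4 groups among the 39 genes, where the mean of the 7 resident genes is higher on all arrays labelled KO than on any labelled WT, and the right panel shows markers of other blood cells, which are highest on WT4.

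The 5 lysosomal and effector genes, the 3 leukocyte surface genes and the 2 transcription factors gave 0 calls with all arrays (2 at an unadjusted p under 0.05 by limma and 1 by the methods' t-test), and WT4 was the highest array labelled WT for all 10. Over the 39 genes WT4 was highest of its group in 16 (41%), against 15% of all tested. Cybb, the catalytic subunit of the phagocyte oxidase, ran over 7.80, 7.86 and 8.08 on the arrays labelled KO (lowest, median, highest), against 7.00, 7.50 and 8.90 on those labelled WT. Without WT4 the highest array labelled WT was WT5 at 7.70, below all labelled KO, and the difference was 0.50, against 0.25 with it (adjusted p = 0.00257 and 0.442). Itgam, the CD11b integrin chain of myeloid cells, ran over 6.22, 6.40 and 6.51 on the arrays labelled KO, against 5.70, 6.06 and 7.26 on those labelled WT. WT4 lay above and the others mostly below the arrays labelled KO, and the difference of 0.19 became 0.41 without WT4 (adjusted p = 0.483 and 0.00408). Its partner chain Itgb2 differed by 0.00, and by 0.21 without WT4 (adjusted p = 0.997 and 0.0333). Ptprc, the CD45 antigen of all white blood cells, ran over 6.60, 6.72 and 6.83 on the arrays labelled KO, against 6.27, 6.59 and 7.74 on those labelled WT, and differed by -0.02, or by 0.18 without WT4 (adjusted p = 0.935 and 0.0705).

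Of the lysosomal and effector genes, Lyz2, the lysozyme of macrophages and neutrophils, differed by 0.39 with all arrays and by 0.51 without WT4 (adjusted p = 0.086 and 0.00815). Laptm5, a lysosomal membrane protein of blood cells, differed by 0.31 and by 0.41 without WT4 (adjusted p = 0.0604 and 0.00476). Mpeg1, the pore-forming protein perforin-2, had the lowest difference of the 39. It ran over 5.93, 6.07 and 6.36 on the arrays labelled KO, against 6.01, 6.27 and 7.33 on those labelled WT, and WT4 alone was above 6.39. Its difference was -0.31, and -0.13 without WT4 (adjusted p = 0.195 and 0.257). Ctss, cathepsin S, which trims the invariant chain, differed by -0.11 (adjusted p = 0.176).

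Spi1 ran over 7.12, 7.34 and 7.56 on the arrays labelled KO, against 6.46, 7.04 and 7.90 on those labelled WT, where WT4 was highest and WT6 lowest. It differed by 0.26, and by 0.42 without WT4 (adjusted p = 0.297 and 0.0202). Irf8, a factor of monocytes and dendritic cells, differed by 0.04, and by 0.09 without WT4 (adjusted p = 0.712 and 0.21). The 7 genes called only without WT4 were Cd74, Cybb, Itgam, Itgb2, Laptm5, Lyz2 and Spi1.

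Counted over arrays, 7 of the 39 genes (17.9%) had every array labelled KO above every array labelled WT, against 10.5% of all tested. They were Folr2, Cd209f, Stab1, Cx3cr1, Adgre1, Csf1r and C1qc, and 0 genes had every array labelled KO below, against 4.92%. Without WT4 there were 10 (25.6%), against 11.8%, with Cd74, Cybb and Tyrobp added. The spread of the arrays labelled WT exceeded that of the arrays labelled KO in 36 of 39 genes (92.3%), against 67.8% of all tested. Without WT4 this held for 31 of 39 (79.5%), against 63.4%. Cd209f was the gene with the widest spread on the arrays labelled KO, at an SD of 0.42 against 0.08 on those labelled WT. WT6 was the lowest array of its group in 14 of 39 genes (35.9%), against 23.3% of all tested.

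Further genes of resident macrophages, chosen as a list, were higher in 6 of 16 cases and lower in 0, beside 19.5% and 12.4% of all tested. At an unadjusted p under 0.05 limma gave 7 higher and 2 lower, and the methods' t-test the same counts. Shares of all tested at that threshold are not given here. Mgl2, a galactose-binding lectin, ran over 7.29 to 7.58 on the arrays labelled KO, against 6.56 to 6.92 on those labelled WT (difference 0.75 ± 0.06 SE, adjusted p = 4.06e-06). Cbr2, a carbonyl reductase, differed by 0.79, the chemokine Ccl24 by 0.49 and the lectin Clec10a, a relative of Mgl2, by 0.42 (adjusted p = 0.000497, 0.000107 and 0.00498). All but Clec10a were without overlap between the groups. The median of the 16 was 0.12 and the lowest difference -0.17.

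Further antigen-presentation and monocyte genes were counted from lists. All are set beside the 19.5% higher and 12.4% lower of all tested, and such small counts are no result about a list. Of 6 further MHC class II genes, 0 were higher and 1 was lower, H2-Oa, at -0.20 (adjusted p = 0.0265). Of 11 further monocyte genes, 2 were higher and 1 lower. They were Vcan, a matrix proteoglycan that fibroblasts also make, at 0.45, Nr4a1, a factor of patrolling monocytes that is also induced in many cells, at 0.57, and Spn, the sialoprotein CD43, at -0.15 (adjusted p = 0.00188, 0.0398 and 0.042). Leaving out single arrays ended the calls of Nr4a1, Spn and H2-Oa (adjusted p up to 0.0866, 0.0857 and 0.0545). Without WT4 the monocyte list had 2 higher and 0 lower, beside 19.5% and 13.4% of all tested. Chil3, a chitinase-like protein of monocytes and neutrophils, read 4.28 to 4.55 on the arrays labelled KO, against 7.59 on WT4 and 4.36 to 4.89 on the other arrays labelled WT.

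Of 16 ligands that recruit or maintain macrophages, 4 were higher and 2 lower, close to the 19.5% and 12.4% of all tested. Without WT4, 6 were higher and 3 lower, beside 19.5% and 13.4%. Such small counts are no result about the list. Ccl2, the main ligand of Ccr2, ran over 6.67 to 7.23 on the arrays labelled KO, against 6.39 to 6.67 on those labelled WT (difference 0.42, adjusted p = 0.00482), and Ccl7, another ligand of Ccr2, differed by 0.46 (adjusted p = 0.00378). Csf1, the growth factor read by Csf1r, differed by 0.31 (adjusted p = 0.00525). Mif, a cytokine made by many tissues, differed by 0.41 (adjusted p = 0.00038). Cx3cl1, the ligand of Cx3cr1, was lower by a difference of -0.37, with every array labelled KO below every array labelled WT (adjusted p = 0.00422), while its receptor was higher.

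Of 16 activation genes, 3 were higher and 3 lower, beside 19.5% and 12.4% of all tested, so the counts are no result about the list. Fabp5, a fatty acid binding protein, and Nos2, the inducible nitric oxide synthase, differed by 0.44 and 0.53 (adjusted p = 0.000179 and 0.000532). Tlr4, the lipopolysaccharide receptor, ran over 6.95 to 7.39 on the arrays labelled KO, against 7.87 to 8.24 on those labelled WT (difference -0.88 ± 0.08 SE, adjusted p = 6.48e-06). Gpnmb, a glycoprotein of phagocytes that take up lipid and debris, differed by -0.87 ± 0.14 (adjusted p = 0.00034). Neither overlapped between the groups, and both genes are also carried by cells other than macrophages.

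Of 12 neutrophil genes 0 were called with all arrays, and 0 at an unadjusted p under 0.05 by limma or the methods' t-test, while 5 were lower without WT4. S100a8, a calcium-binding protein of neutrophils, read 5.31 to 5.68 on the arrays labelled KO, against 9.64 on WT4 and 5.50 to 6.33 on the other arrays labelled WT. Mpo, the myeloperoxidase of neutrophil precursors, read 5.75 to 5.89 on the arrays labelled KO, against 10.11 on WT4 and 5.82 to 6.38 on the others labelled WT. Of 5 B cell genes and 8 T and natural killer cell genes none was called with all arrays. At an unadjusted p under 0.05 limma gave 0 and 1, and the methods' t-test the same counts. Without WT4, 1 B cell gene was higher and 0 were lower, and 0 T and natural killer cell genes were called. Of 8 dendritic cell genes 0 were higher and 1 was lower. Mast cell genes had 3 higher and 1 lower of 7. Cpa3, a mast cell carboxypeptidase, was at 0.51 and Hdc, which makes histamine, at -0.59 (adjusted p = 0.046 and 0.00799). The Cpa3 call was lost without single arrays (adjusted p up to 0.101). Over all tested the shares were 19.5% higher and 12.4% lower, and 19.5% and 13.4% without WT4. The B cell, dendritic and mast cell counts are too small to be a result about those lists.

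Fat cell and glucocorticoid-induced genes also differed between the groups. The 8 adipocyte genes averaged 7.75 to 9.67 on the arrays labelled KO, against 7.72 to 8.98 on those labelled WT. Of these 8, 5 were higher and 0 lower, against 19.5% and 12.4% of all tested. Lep, the fat cell hormone leptin, was at 2.12 (adjusted p = 0.000545). Glucocorticoid-induced genes were lower in 5 of 8 cases, against 12.4% of all tested. Their means were 8.90 to 9.28 on the arrays labelled KO, against 9.31 to 10.59 on those labelled WT, among which WT1, WT2 and WT6 were highest. Fkbp5, a co-chaperone of the glucocorticoid receptor, differed by -1.43 (adjusted p = 0.0204). The part of either in the macrophage differences was not tested beyond the fits given here. Without WT1, WT2 and WT6 the count of macrophage and myeloid genes was 17 higher and 0 lower, the same counts as with all arrays. Cd68 and Tyrobp lost their calls there, and Fcgr2b and Fcgr3 gained theirs. With all arrays the shares of all tested were 19.5% and 12.4%, and those without these arrays are not given here. The 10 muscle fibre genes averaged 12.54 to 12.77 on the arrays labelled KO and 12.47 to 12.76 on those labelled WT. Of these 10, 1 was higher and 4 were lower, against 19.5% and 12.4% of all tested. The one higher was Myh4, a myosin heavy chain, at 1.70, and Ttn was among the lower at -0.40 (adjusted p = 0.000397 and 0.00697). Their mean therefore hides changes in opposite directions.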

How the data were processed

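Total RNA of 1 quadriceps sample per mouse was hybridized to 1 array. Gene level log2 values were made by the authors with Affymetrix Power Tools from images read by the scanner's own software, and the summary algorithm was not stated in the sources used here. The log2 scale and the normalization of the deposited table were read from its values. Groups came from the sample titles. Platform annotation gave 1 symbol to 21789 of the 35556 rows and several to 1621, and 12146 rows are unnamed here. Symbols of 21698 were updated from a RefSeq table of GRCm38.p6. For each gene the probe set with the highest mean stood for it.

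Differences of the 21789 probe sets came from lmFit and eBayes of limma 3.58.1 (R 4.3.3) with no covariate. P-values were adjusted over all of them (Benjamini-Hochberg), with 0.05 as the threshold, and a fold is the log2 difference turned back to the linear scale. No filter on dim probe sets was used, and 6 arrays a group limit the precision. The 39 genes and all lists were chosen with earlier results of these data known. Named are Cfl2, the 39 genes and up to 4 passing genes of each list, with Csf1 added beyond the 4 of the ligand list. Chil3, S100a8, Mpo and Prox1 were picked after their values were seen. On simulated data of 6 against 6 arrays and 21789 probe sets, where 50 changes of each size were planted, the fit found 18 at 0.25, 45 at 0.5 and all 50 at 1 and at 2, beside 11 false calls. The planted changes were a far smaller share than the 31.9% of probe sets called in the real data. Recovery and false calls can therefore differ there. Promoters were searched as exact letters on both strands. Alternatives were a replicate block, other scalings, filters, variance settings and weights, the methods' t-test, Y-linked and adipocyte levels as covariates, other ways to combine probe sets and genes, and leaving out arrays. Leaving out WT4 with KO5, and centring on the median over all rows, were chosen after seeing the data.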

Additional observations from a re-analysis of the deposited data

Results flagged for a closer look

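A value stood far from the other 5 arrays of its group in 20 of the 164 groups of 6 examined. The rule flags about 1 in 20 by chance only if groups are independent and chosen beforehand. Here the list means share genes with single rows, and Chil3, S100a8 and Mpo were picked after their values were seen. The count therefore cannot be set against that rate. Among the 39 genes there were 7, of 78 groups. WT4 was far above the other arrays labelled WT for Ccr2 (5.04), Mpeg1 (7.33), Cybb (8.90), Ptprc (7.74) and Itgb2 (7.60). WT2 was far above them for Cd163, at 8.23, and WT6 for H2-Eb1, at 7.10.

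Outside the 39, WT4 was highest of the arrays labelled WT for Chil3 (7.59), S100a8 (9.64) and Mpo (10.11), and for the mean levels of the neutrophil (8.12), B cell (6.20), platelet (7.51) and red cell (8.79) lists. It was lowest for Ccl24, at 6.03. WT6 was lowest of the arrays labelled WT for Csf1 (7.41) and for the mean of the endothelial genes (9.74). The mean of the adipocyte genes was far below the others labelled KO on KO5 (7.75) and far above the others labelled WT on WT1 (8.98), and the glucocorticoid-induced genes were highest of the arrays labelled KO on KO1 (9.28).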

How the results depend on the processing

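Of the 17 genes called higher, 9 kept their direction and their call under all 29 alternatives (Adgre1, C1qc, Csf1r, Cx3cr1, F13a1, Fcer1g, Folr2, Pf4 and Stab1). Cd209f and Aif1 kept theirs under the 28 that tested them, since leaving out the dimmest probe sets removed both. None of the 17 changed sign. Tyrobp lost its call under 10, Lyve1 and Cd68 under 2 each, and Mrc1 (0.24), C1qa (0.27) and C1qb (0.47) under the adipocyte covariate only, where Lyve1 was at 0.73 and Cd68 at 0.47. With that covariate 11 of the 39 were higher and 3619 probe sets were called, against 6952. Leaving out each array in turn gave 16 to 24 genes higher, 0 lower and 5924 to 7155 probe sets called, and a resident difference of 0.46 to 0.54. Of all calls, 61.1% were higher with the values as deposited and 60.3% after quantile normalization. With arrays centred on the median of the tested probe sets 36.2% were higher, and centred over all rows 77.8%. In that order 17, 16, 17 and 21 of the 39 were higher and 0, 1, 2 and 0 lower. Of all tested, in the same order, 19.5%, 18.1%, 15.2% and 25.1% were higher and 12.4%, 11.9%, 26.9% and 7.15% lower. The lower ones of the 39 were Ctss and, after centring on the tested probe sets, Cd209g. The methods' t-test called 9003 probe sets and 20 of the 39 at its unadjusted threshold, and 6342 and 15 after Benjamini-Hochberg adjustment. The cause of these changes was not tested.

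Sign changes occurred in genes that were called neither with all arrays nor in the setting that turned them. After quantile normalization Cd209d was at 0.0488 and H2-Eb1 at 0.0018. Centred on the tested probe sets, Trem2 was at -0.0217, Itgb2 at -0.0583 and Irf8 at -0.0233, and centred over all rows Cd209d was at 0.0408, H2-Eb1 at 0.0375, Ptprc at 0.0275 and Prox1 at 0.0292. With array weights H2-Eb1 was at 0.0039, Trem2 at -0.0016 and Ptprc at 0.0248, and with the adipocyte covariate H2-Eb1 at 0.0200 and Itgb2 at -0.0426. Without WT2 and WT4, Ccr2 was at 0.065, Trem2 at -0.0383, Ptprc at 0.178 and Prox1 at 0.0692. Without WT1, WT2 and WT6, Cd163 was at 0.0117, H2-Eb1 at 0.0083, Cybb at -0.142, Itgb2 at -0.19 and Irf8 at -0.0233. Without WT4 and KO5, Ccr2 was at 0.044, Trem2 at -0.016, Ptprc at 0.198 and Prox1 at 0.018. Leaving out single arrays gave -0.078 to 0.062 for Ccr2, -0.0283 to 0.0043 for Cd209d, -0.0457 to 0.0503 for H2-Eb1, -0.00067 to 0.0913 for Irf8, -0.0807 to 0.207 for Itgb2, -0.0653 to 0.0347 for Prox1, -0.116 to 0.178 for Ptprc and -0.0033 to 0.0647 for Trem2, and Itgb2 was called without WT4.

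Same-numbered arrays correlated at -0.22 to 0.17 in their deviations from the group means, and only numbers 1 and 5 correlated best with their own. Whether same-numbered arrays came from littermates is not given in the titles, and such correlations cannot decide it. With the number as a replicate block, 18 of the 39 were higher (Laptm5 was added) and 0 lower, with 6074 probe sets called.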
